A study of Mus musculus with 2 samples.

Results

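Genes that ERK signalling switches on, most of which restrain it, were examined in NE4C cells, a mouse neural stem cell line that came from embryos lacking p53. The set held 10 genes, taken by symbol from a table of 16803 genes: the phosphatases Dusp1, Dusp4, Dusp5 and Dusp6, the RAS and RAF inhibitors Spry2, Spry4, Spred1 and Spred2, and the transcription factors Etv4 and Etv5. All 10 were listed, once each. RNA from 1 normal culture (control) and from 1 culture given homocysteine thiolactone (HTL), a reactive ring form of homocysteine that attaches to protein lysines, had been sequenced. The labels state neither the dose nor the length of the treatment, and whether the cells for sequencing were serum-starved first, as in other experiments of the study, is not stated. Because each condition was a single library, no value below has a replicate check, and every interval and test covers counting error between these 2 libraries, not the conditions.

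When a growth factor binds its receptor tyrosine kinase, RAS, RAF and MEK pass the signal to ERK kinases. Active ERK then induces its own brakes, along with transcription factors. Dual-specificity phosphatases (DUSPs) remove the activating phosphates from MAP kinases, Sprouty and Spred proteins hold back RAS and RAF, and the ETS factors Etv4 and Etv5, of the PEA3 group, carry the transcriptional response to FGF signalling, including in the developing nervous system. Levels of these transcripts are therefore widely read as a record of ERK output.

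The control library held 10350646 reads after rounding and the HTL treatment library 9102057; pairs of read counts below give the control first. A total of 13442 genes with 10 reads or more over the pair of libraries were tested, and all 10 feedback genes were among them. The median log2 ratio (HTL treatment over control, reads scaled to library totals) of all genes tested was -0.14. A gene was called when its adjusted p in a two-sided exact binomial test was at most 0.001 and its absolute log2 ratio at least 1. By this rule 3 of the 10 feedback genes were called, 1 higher (Dusp5) and 2 lower (Spred1 and Etv4), where 10.8% of all genes tested were called, 2.81% higher (378 genes) and 7.98% lower (1072 genes). The split over all genes was 553 and 798 under TMM scaling, 559 and 788 under the median of ratios and 498 and 860 under the upper quartile. At an adjusted p of at most 0.001 alone, without the fold cutoff, 5 of the 10 passed, Spred2 and Etv5 being the others, and so did 38.6% of all genes tested. That membership turned on the scaling: under TMM, the median of ratios, the upper quartile and length centring, Spred2 missed 0.001 while Dusp4 and Spry4 passed, so that 3 genes above 0 and 3 below passed in place of 1 and 4. Of the 10 genes, 5 lay above 0 and 5 below. Their median was -0.08, turning to 0.05 under TMM and the median of ratios, 0.01 under the upper quartile and 0.05 when centred on length, so its sign depends on the scaling. Their log2 ratios ran from -1.31 to 1.64. The phosphatases lay on the higher side, and the Spred genes and ETS factors on the lower.

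The levels themselves spread widely. Scaled to transcript length as FPKM, Etv5 stood first in the control library at 81.0, followed by Spred2 (33.4), Etv4 (23.3), Dusp6 (13.3), Spred1 (13.1), Dusp1 (6.15), Dusp4 (5.88), Spry2 (2.89), Spry4 (2.53) and Dusp5 (2.04). Neighbours whose exact Poisson intervals overlapped were Dusp6 with Spred1, Dusp1 with Dusp4, Spry2 with Spry4 and Spry4 with Dusp5. In the HTL treatment library the order of FPKM was Etv5 (47.6), Spred2 (26.2), Dusp6 (15.0), Etv4 (9.31), Dusp4 (8.43), Dusp1 (7.93), Dusp5 (6.45), Spred1 (5.49), Spry4 (3.70) and Spry2 (2.09). There the intervals of each neighbouring pair from Etv4 down to Spred1 overlapped. Etv5 stood 6.11 times above Dusp6 in the control library and 3.17 times above it in the HTL treatment library. Summed FPKM of the 10 genes was 183.5 in the control and 132.2 in the HTL treatment library, and Etv4 and Etv5 together supplied 104.3 and 56.9 of it.

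**Figure D1:**
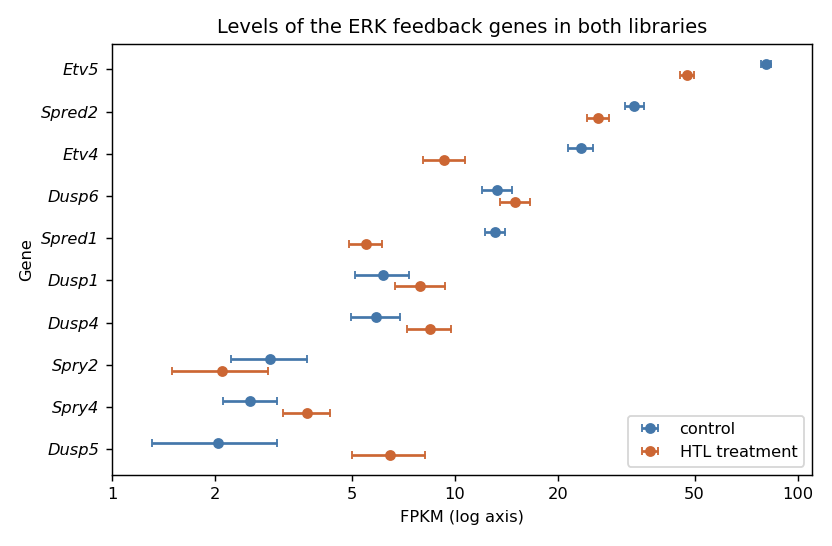
FPKM (log axis) of each of the 10 genes in the control and HTL treatment libraries, 1 library each, with bars for the exact Poisson 95% interval of the read count. Etv5 is the most abundant in both libraries, Etv4 and Spred1 shift to the left after HTL, and Dusp5 shifts to the right, from 2.04 to 6.45.

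The 4 phosphatases each had a log2 ratio above 0, and 1 of them was called. Dusp5, a nuclear phosphatase that acts on ERK, went from 24 control reads to 67 after HTL. It stood at a log2 ratio of 1.64 (0.97 to 2.40; intervals are exact 95% Clopper-Pearson), a 3.13-fold higher level, with an adjusted p of 9.86e-07 in the exact binomial test. It was the least abundant of the 10 in the control library, so its interval was wide. Dusp4, another nuclear phosphatase induced by ERK, with 148 and 187 reads, stood at a log2 ratio of 0.52 (0.20 to 0.84), with an adjusted p of 0.00242 in the same exact test, which missed 0.001. Dusp1, a nuclear enzyme that acts on p38 and JNK as well as ERK, with 124 and 141 reads, stood at a log2 ratio of 0.37 (0.01 to 0.73), with an adjusted p of 0.0713 in the exact test. Dusp6, the cytoplasmic ERK phosphatase most often used as an ERK readout, had 388 and 387 reads. Its log2 ratio was 0.18 (-0.03 to 0.39), an interval that includes 0 with scaling to totals. Under TMM it was 0.31 (adjusted p = 0.00601 in the exact test), and over the settings the adjusted p ran from 0.00536 upward without reaching 0.001.

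Promoters were read to show what lies in front of the gene that rose and the one whose fall was called from the most reads. The sequences are the bases before the annotated start from RefSeq on GRCm38.p6, a build other than that of the gene positions given later. Entries were found for 7 of the 10 genes. Each window of 250 bases was searched on both strands for the cyclic AMP response element TGACGTCA, the ETS sequence CCGGAAGT and the CArG box, which binds serum response factor. Dusp5 held a pair of adjacent CArG boxes, the first beginning 82 bases before the start, and Dusp1 held 1 cyclic AMP response element, beginning 143 bases before it. The other 5 genes matched, Dusp6, Spry2, Spred1, Spred2 and Etv5, held none of the 3 motifs. Over 32851 promoters of the same length, 1.47% held a CArG box, 1.55% TGACGTCA and 2.88% CCGGAAGT. Of 8 relatives described below with an entry, Dusp8 held TGACGTCA at 2 places and the other 7 held none of the motifs, Dusp10 and Dusp16 among them. Matches are shown in capitals for Dusp5 (chr19:53528895-53529144, plus strand), Dusp1 (chr17:26508473-26508722, minus strand) and Dusp8 (chr7:142095285-142095534, minus strand), and Spred1 (chr2:117120821-117121070, plus strand) is printed as a called fall, without a match.
Dusp5: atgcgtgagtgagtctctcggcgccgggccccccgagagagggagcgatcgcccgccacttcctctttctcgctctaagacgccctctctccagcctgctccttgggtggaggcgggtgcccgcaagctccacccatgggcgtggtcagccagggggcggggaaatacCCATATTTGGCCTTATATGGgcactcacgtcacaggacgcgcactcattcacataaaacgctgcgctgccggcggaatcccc
Dusp1: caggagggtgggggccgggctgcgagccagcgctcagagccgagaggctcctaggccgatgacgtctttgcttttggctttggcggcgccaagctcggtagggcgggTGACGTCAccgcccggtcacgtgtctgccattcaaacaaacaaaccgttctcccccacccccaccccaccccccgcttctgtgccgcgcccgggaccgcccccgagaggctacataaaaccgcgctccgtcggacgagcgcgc
Dusp8: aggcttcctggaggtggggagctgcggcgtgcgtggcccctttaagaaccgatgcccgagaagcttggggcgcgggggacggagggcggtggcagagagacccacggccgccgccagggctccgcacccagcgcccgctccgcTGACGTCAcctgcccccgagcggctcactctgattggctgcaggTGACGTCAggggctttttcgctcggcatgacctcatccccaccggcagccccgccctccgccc
Spred1: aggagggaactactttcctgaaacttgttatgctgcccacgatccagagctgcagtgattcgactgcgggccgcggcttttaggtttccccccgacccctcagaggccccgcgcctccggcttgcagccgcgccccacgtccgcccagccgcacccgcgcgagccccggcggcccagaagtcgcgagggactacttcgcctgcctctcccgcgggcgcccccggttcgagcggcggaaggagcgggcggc

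Among the inhibitors of RAS and RAF, Spred1 fell and the Sprouty genes gave no call. Spred1, which brings neurofibromin to the membrane to switch RAS off, went from 864 control reads to 316 after HTL. Its log2 ratio was -1.26 (-1.46 to -1.08), a 2.40-fold lower level, with an adjusted p of 1.06e-43 in the exact binomial test. Its transcript (6238 bases) lay in the longest of 10 length bins, whose median log2 ratio was -0.38. Set against that bin, Spred1 stood at -0.89 and no longer passed the fold cutoff. Spred2 (997 and 689 reads) stood at a log2 ratio of -0.35 (-0.49 to -0.21), with an adjusted p of 3.70e-06 in the exact test but short of the fold cutoff. Spry2 (63 and 40 reads) stood at a log2 ratio of -0.47 (-1.08 to 0.12), an interval that includes 0. Spry4 (122 and 157 reads) stood at a log2 ratio of 0.55 (0.20 to 0.90), with an adjusted p of 0.00408 in the exact test. The Sprouty transcripts were scarce, at 2.09 to 3.70 FPKM, so neither ratio was well fixed.

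Both ETS factors were lower after HTL. Etv4 went from 566 control reads to 200 after HTL, a log2 ratio of -1.31 (-1.56 to -1.08) and a 2.49-fold lower level, with an adjusted p of 1.43e-30 in the exact binomial test. Etv5 had 3251 and 1684 reads, the most of any of the 10 genes. Its log2 ratio was -0.76 (-0.85 to -0.68), 1.70-fold lower, and its adjusted p in the exact test was 4.53e-71, yet it was not called because the ratio fell short of 1. Etv4 lay at percentile 6.93 of the log2 ratios of all genes tested, Spred1 at 7.60, Etv5 at 18.7 and Dusp5 at 98.7.

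**Figure D2:**
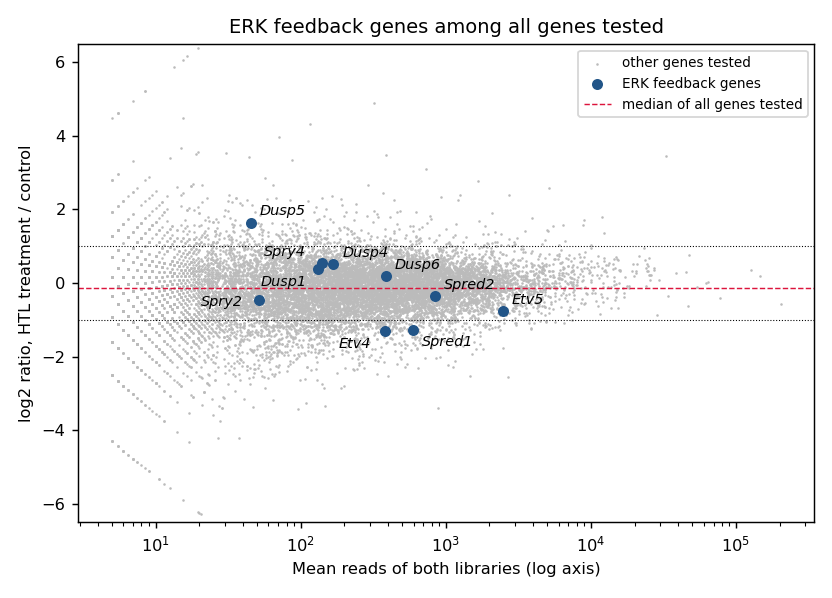
Log2 ratio of HTL treatment over control against mean reads (log axis) for all genes tested, with the 10 ERK feedback genes marked, the median of all genes as a dashed line and the fold cutoff of 1 as dotted lines. Dusp5 (1.64) lies above the cutoff, Etv4 (-1.31) and Spred1 (-1.26) lie below it, and 10 other genes fall outside the plotted range.

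Members of 1 family were then compared with each other, which does not depend on the library totals or size factors used, though centring on transcript length does change the differences. Fisher's exact test on the reads was run for 9 pairs, chosen after the values had been seen, with adjustment over the 9. Spred2 and Spred1 differed by 0.92 on the log2 scale (95% interval 0.68 to 1.16, adjusted p = 4.95e-14 in Fisher's exact test). Etv5 and Etv4 differed by 0.55 (0.30 to 0.81, adjusted p = 4.35e-05, Fisher's exact test). Both genes of each pair were lower, by unequal amounts. Dusp5 lay above Dusp6 by 1.48 (0.76 to 2.25), above Dusp1 by 1.29 (0.50 to 2.12) and above Dusp4 by 1.14 (0.37 to 1.95). The adjusted p values of Fisher's exact test were 5.86e-05, 0.00183 and 0.00408. Spry4 lay above Spry2 by 1.02 (0.32 to 1.73, adjusted p = 0.00408, Fisher's exact test). No difference was detected among Dusp1, Dusp4 and Dusp6, where the largest, Dusp4 over Dusp6, was 0.34 (-0.04 to 0.73).

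Close relatives outside the set were read from lists of the remaining family members. Over all genes tested, 2.81% were called higher and 7.98% lower. Of the 6 other MAP kinase phosphatases, 3 were called higher and 0 lower. They were the ones known to act mainly on JNK and p38. Dusp16 (461 and 855 reads) stood at a log2 ratio of 1.08 (0.91 to 1.24), and Dusp10 (5 and 56 reads) at 3.54 (2.36 to 5.35). Dusp8 (2 and 28 reads) stood at 3.68 (2.01 to 7.11). Dusp10 and Dusp8 rested on few control reads, so their size is poorly fixed, and on the FPKM + 1 scale Dusp8 (0.65) and Dusp16 (0.99) were not called. The ERK phosphatases Dusp7 (414 and 299 reads, -0.28) and Dusp9 (348 and 321, 0.07) and the scarce Dusp2 (7 and 5, -0.28) were not called. Of the 4 other Sprouty, Spred and PEA3 genes, 0 were called higher and 2 lower. Etv1, the remaining PEA3 factor, with 358 and 109 reads, stood at a log2 ratio of -1.53 (-1.85 to -1.22), and Spred3 had 207 and 68 and a log2 ratio of -1.41 (-1.84 to -1.02). Spry1 (0.37) and Spry3 (-0.67) were not called. Over whole families, summed FPKM went from 112.5 to 59.8 for the 3 PEA3 factors and from 51.4 to 33.5 for the 3 Spred genes. It was 11.9 and 12.8 for the 4 Sprouty genes, and 61.3 and 82.2 for the 10 MAP kinase phosphatases. Over all genes it was 473738 and 528567, itself higher after HTL.

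**Figure D3:**
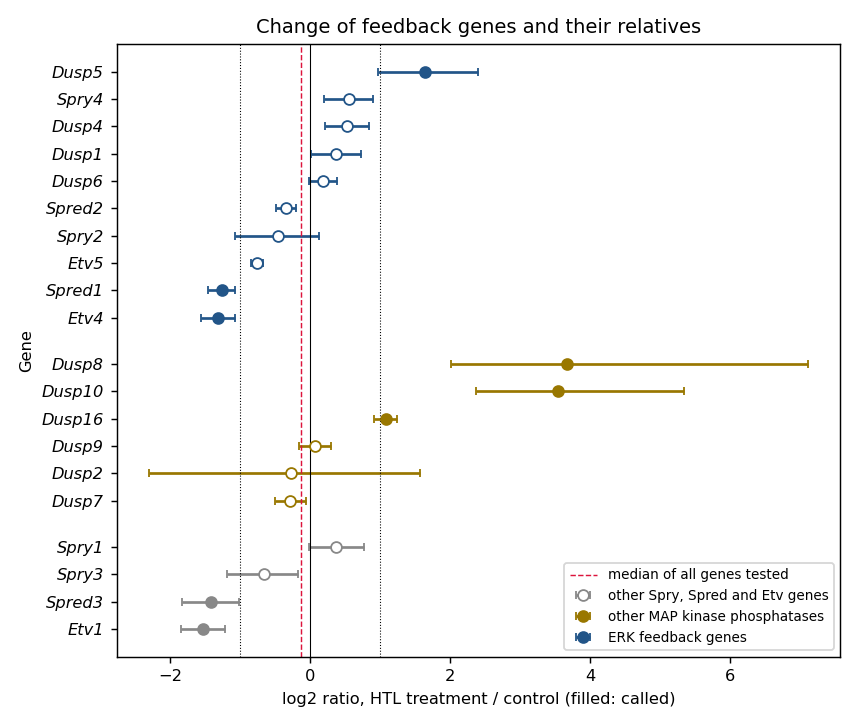
Log2 ratio of HTL treatment over control with exact Clopper-Pearson 95% intervals for the 10 ERK feedback genes and 10 relatives. Filled points were called, dotted lines mark the fold cutoff and the dashed line the median of all genes tested (-0.14). Dusp5, Dusp8, Dusp10 and Dusp16 are called on the right, and Etv1, Etv4, Spred1 and Spred3 on the left.

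The rest of the pathway was read upstream to downstream, with abundance ranked on FPKM averaged over both libraries. The counts below are to be read beside 2.81% called higher and 7.98% called lower over all genes tested. Of 12 growth factor genes tested, 0 were called higher and 1 lower, Fgf5 (39 and 10 reads, -1.73). The most abundant of them, Fgf15, had a log2 ratio of -0.19 (-0.61 to 0.24). Of 17 receptor tyrosine kinases, 1 was called higher and 4 lower, but the lower calls numbered 1 under TMM and the median of ratios, 2 under the upper quartile and 0 when centred on length. The EGF receptor gene Egfr (69 and 145 reads) had a log2 ratio of 1.25 (0.83 to 1.69). The lower calls were led by the HGF receptor gene Met (110 and 41 reads, -1.23, and -0.85 when centred on length) and the BDNF receptor gene Ntrk2 (77 and 30 reads, -1.16). Fgfr1, the most abundant receptor, with 1775 and 1621 reads, stood at a log2 ratio of 0.05 (-0.04 to 0.15). Of 15 adaptor and RAS genes, 2 were called higher and 0 lower: Frs3, an FGF receptor adaptor (16 and 49 reads, 1.77), and Rras (55 and 111, 1.19). The phosphatase gene Ptpn11, the most abundant there on that average, stood at 0.21 (0.12 to 0.29).

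Of 13 RAF, MEK, ERK and scaffold kinase genes, 0 were called higher and 1 lower, and their median was 0.0027. Over all genes tested 2.81% were called higher and 7.98% lower, so 1 lower call in a list of this size is near that share. Braf (721 and 311 reads) stood at a log2 ratio of -1.03 (-1.22 to -0.83). Of 14 other brakes on RAS and ERK, 1 was called higher and 2 lower. Il17rd, the FGF antagonist Sef, with 1008 and 302 reads, stood at a log2 ratio of -1.55 (-1.74 to -1.37). Errfi1, an inhibitor of EGF receptor signalling, with 61 and 133 reads, stood at 1.30 (0.86 to 1.77). Lztr1, an adaptor for RAS degradation, had 238 and 103 reads (-1.02), and the RAF inhibitor gene Pebp1, the most abundant brake, stood at 0.55 (0.48 to 0.61). Of 9 other ERK-induced genes tested, 0 were called higher and 2 lower. They were Myc (538 and 111 reads, -2.09), and Ier3 (128 and 42 reads, -1.41), while Ier2 (330 and 451 reads) stood at 0.64. Of 11 p38 and JNK kinase genes, 1 was called, Map2k6, a p38 activator (222 and 55 reads), at -1.82 (-2.28 to -1.40). Map2k7, the most abundant of these on the average of both libraries, stood at -0.13. Of 10 atypical dual-specificity phosphatases tested, 0 were called by the binomial test, 1 passed the adjusted p alone, and the most abundant, Dusp12, stood at -0.32. The calls on Fgf5, Braf and Lztr1 were lost under TMM, the median of ratios and the upper quartile, where Hbegf among the growth factors and Dusp14 among the atypical phosphatases, named after their values were seen, were called higher. On the FPKM + 1 scale Egfr (0.78), Errfi1 (0.98), Met (-0.63) and Ntrk2 (-0.48) were among those not called. The call on Ntrk2 was also lost under TMM, the median of ratios and length centring. Exons of Braf, Dusp12, Fgf15, Fgfr1 and Frs3 overlap exons of other annotated genes, for each of them 1 on the opposite strand, and the use of strand is not stated, so their reads are uncertain. Those of Map2k7 overlap a gene on its own strand, which makes its reads uncertain too.

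**Figure D4:**
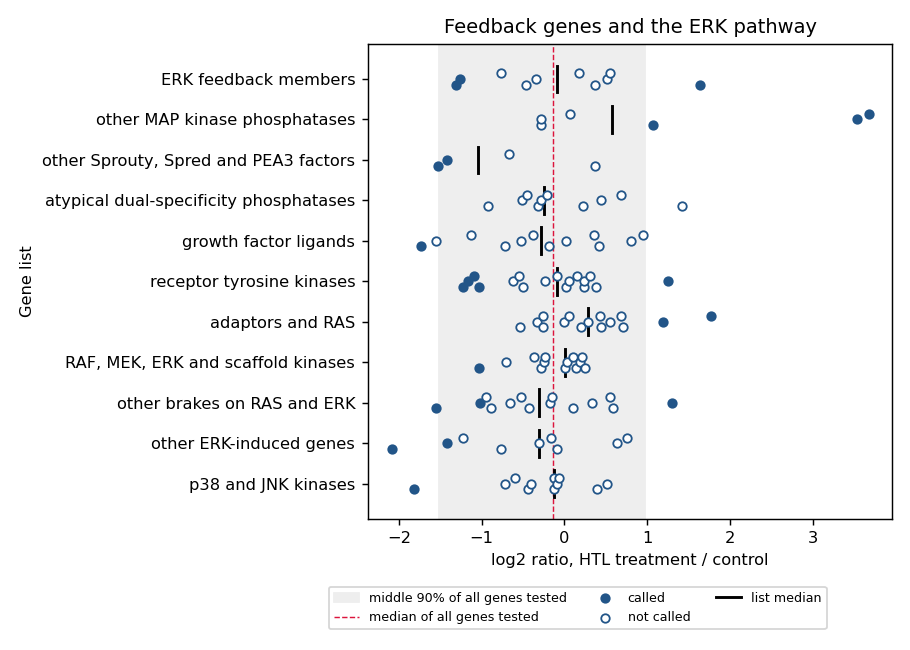
Log2 ratio of HTL treatment over control for each gene tested in the feedback set and in 10 lists of relatives and pathway genes, with list medians as bars, called genes filled and the middle 90% of all genes tested in grey. List medians run from -1.04 (other Sprouty, Spred and PEA3 factors) to 0.57 (other MAP kinase phosphatases), and that of the feedback set is -0.08.

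The labelled cell type was checked on its markers. Of 9 neural stem cell markers, 8 were tested, led by Vim at 78.5 FPKM in the control and 38.8 in the HTL treatment library. Fabp7, with 2 and 2 reads, was not tested. Summed, the 9 stood at 208.1 and 150.5 FPKM and the 6 neuron markers at 36.1 and 51.2. The 4 mesenchyme markers stood at 1.83 and 3.04, and the glia markers listed at 3.99 and 4.27. Mbp supplied 3.61 and 4.19 of the glia sum, and Gfap had 2 and 0 reads. The sum over all genes was 473738 and 528567, itself higher after HTL. Within the stem cell list, Sox1, Sox2 and Vim were called lower (-1.78, -1.46 and -1.01), where 7.98% of all genes tested were. Vim was lost under each other scaling and Sox1 on the FPKM + 1 scale (-0.70). The other 5 tested were not called, namely Prom1 (0.51, adjusted p = 1.12e-07 in the exact test), Pax6 (0.12), Msi1 (0.03), Nes (-0.06) and Hes1 (-0.11), and the list median was -0.08. Among neuron markers Dcx was called lower (-1.40), though neither on the FPKM + 1 scale nor centred on length, and Tubb3, the most abundant, stood at 0.60. Of the 6, 3 lay above 0 and 3 below, with a median of -0.13, so the higher sum rested mainly on the abundant Tubb3 and Stmn2 (15.7 and 23.3 FPKM). These values moved beside the called falls of Etv4, Etv1, Spred1 and Spred3, and their part in them was not tested. In bulk RNA, fewer cells of a type and less RNA per cell cannot be told apart.

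Other scalings shifted the median log2 ratio of all genes upward by 0.09 (upper quartile) to 0.14 (median of ratios), a shift common to all genes under which no feedback gene crossed 0. The 3 calls were the same genes under TMM, the median of ratios and the upper quartile. Centred on transcript length, Dusp5 stood at 1.51 and Etv4 at -1.20, both called, and Spred1 was lost as described. The calls also rested on how far separate cultures would differ, on which a single library per condition gives no value. When that variation was set at a coefficient of 0.1, Dusp5, Spred1 and Etv4 were still called, but Etv5 (adjusted p = 0.00229 in the exact test of edgeR) and Spred2 (0.242) missed 0.001. At 0.2, the exact test of edgeR gave adjusted p values of 0.0457 for Dusp5, 0.0511 for Etv4 and 0.0582 for Spred1, and 0 of the 10 genes were called. Over all settings the adjusted p ranged from 8.38e-08 to 1 for Dusp5, from 1.43e-30 to 1 for Etv4 and from 1.06e-43 to 1 for Spred1, edgeR's exact test at a coefficient of 0.4 giving the upper end. Of the relatives, Dusp10 was still called at 0.2 (adjusted p = 4.05e-05 in edgeR's exact test, with a range of 4.83e-14 to 0.395 over all settings). Among the pathway genes and markers named as called, Fgf5, Met, Ntrk2, Rras, Lztr1 and Sox1 lost their calls already at 0.1. Their adjusted p values in edgeR's exact test ran from 0.00112 (Lztr1) to 0.00801 (Ntrk2). The others named as called with scaling to totals kept their calls at 0.1.

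**Figure D5:**
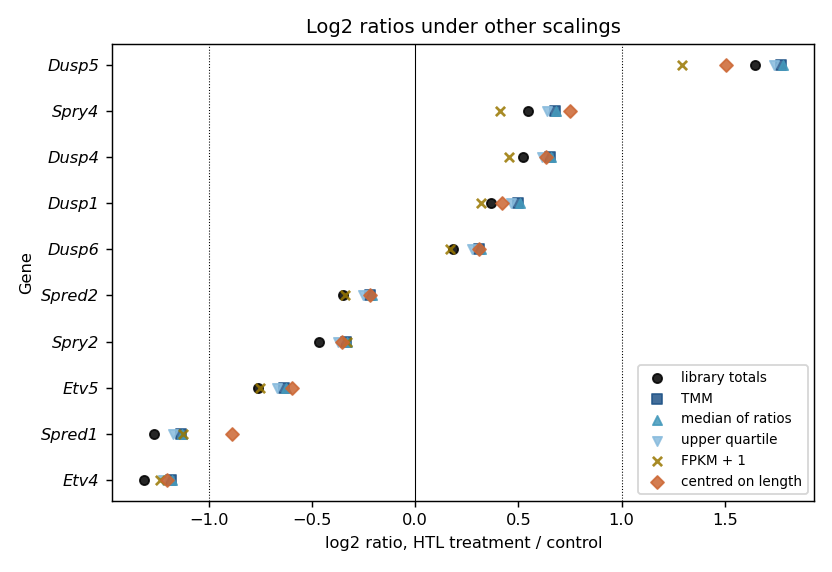
Log2 ratio of HTL treatment over control for each of the 10 ERK feedback genes under 6 ways of scaling, with the fold cutoff of 1 as dotted lines. Each gene keeps its side of 0 under all 6, Spred1 crosses inside the cutoff only when centred on transcript length (-0.89), and Dusp5 ranges from 1.29 (FPKM + 1) to 1.78.

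In the NCBIM37 build (mm9), with GENCODE M1 gene models, Dusp5 (gene ID 240672) lies on chromosome 19 from 53603599 to 53616921 on the plus strand, and Spred1 (gene ID 114715) on chromosome 2 from 116947110 to 117008015, plus strand. Etv4 (gene ID 18612) lies on chromosome 11 from 101631056 to 101646685, minus strand, and Etv5 (gene ID 104156) on chromosome 16 from 22381382 to 22439792, minus strand. No exon of any of the 10 genes overlaps an exon of another annotated gene, and all 10 had whole-number estimated counts in both libraries.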

How the data were processed

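Total RNA of 1 control and 1 HTL treatment library was analysed, with groups taken from the sample titles. Per the labels, a TruSeq kit and BGISEQ protocols were used. After mapping to mouse genes, the authors deposited RSEM estimated counts, not normalized. The authors also deposited FPKM, scaled to transcript length and library size (lowest value 0.01). mm9 comes from the submitters' processing notes. The mapper, versions, annotation and use of strand are not given in the sources used here. The authors' own log2 ratio, p-value and FDR columns were not used.

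Estimated counts were rounded to whole reads. The exact conditional binomial test against library totals was adjusted by the Benjamini-Hochberg method over all 13442 genes with at least 10 reads in total (3361 left out). For log2 ratios 0.5 read was added. A count of 0 allows up to 3 reads, 0.29 CPM in the control and 0.33 CPM in the HTL treatment library. Without molecular identifiers, reads are not independent molecules. Lacking replicates, neither the quasi-likelihood model nor a DESeq2 test could be fitted. Alternatives used edgeR 4.0.16 (TMM, upper quartile, exact test with an assumed coefficient of variation) and DESeq2 1.42.0 (median of ratios), and other steps scipy 1.17.1. Scripts were tested on simulated data. The genes and lists were chosen with earlier results of these data known. Named were all 10 genes, their close relatives and, per other list, up to 2 called rises, up to 2 called falls and the most abundant gene, except 1 gene that is not reported here. The labels name no replicates, so spread between cultures is unknown.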

Additional observations from a re-analysis of the deposited data

How the results depend on the processing

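No paired analysis was possible because there was just 1 library per condition, which also prevents leaving a library out. The count of 3 feedback genes became 5 with the adjusted p alone and 0 at an assumed coefficient of variation of 0.2 or 0.4; over all genes, 1450 calls became 816 with FPKM + 1, 5193 with the adjusted p alone, 3637 with the fold cutoff lowered to 0.5, and 120 and 6 at a coefficient of variation of 0.2 and 0.4. Without the fold cutoff Spred2 (-0.35) and Etv5 (-0.76) passed, and Etv5 also at 0.5; with TMM, median of ratios or upper quartile scaling Spred2 missed the adjusted p, and Dusp4 and Spry4 met it. At 0.2 and 0.4 Dusp5 (1.64), Spred1 (-1.26) and Etv4 (-1.31) no longer passed, with the ratios themselves as before, because more spread between cultures is assumed. Centred on length, Spred1 stood at -0.89, since its length bin lies low. Of 12 settings 6 leave the log2 ratios as they are by construction; under the other 6, 0 of the 10 genes changed direction, while the set's median turned positive under 4. The share of lower calls over all genes went from 73.9% to 58.5% under the median of ratios. Among the 10 genes and their close relatives, depth limits Dusp2, Dusp5, Dusp8, Dusp10, Spry2 and Spry3, which had under 100 reads in each library. The same limit holds for the called pathway genes and markers Fgf5, Frs3, Ntrk2, Sox1 and Dcx, and for Hbegf and Dusp14.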
